A study of Homo sapiens with 2 samples.

Results

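The keratins of A549 cells were described in digital gene expression data, in which short sequence tags from the 3′ ends of mRNA were counted per gene. A549 is a human lung adenocarcinoma cell line of epithelial type. The members are the 8 keratin genes KRT7, KRT8, KRT10, KRT15, KRT18, KRT19, KRT80 and KRT81, listed by symbol with earlier results of these data known. Of them 7 had a row among the 13137 genes of the table, while KRT81 was not analysed here. The study asked which genes differ when the transcription factor SOX2 is silenced. There were 2 libraries, 1 per condition, each from its own polyclonal, puromycin-selected A549 line with a stable doxycycline-inducible hairpin under the H1TetO promoter. One was labelled H1TetO-shRNA-SOX2 (called the shRNA-SOX2-labelled library), and the other was labelled H1TetO-shRNA-Con, the control with a scrambled hairpin. Both lines were incubated with doxycycline for 4 days, 4 µg of total RNA was taken from each, and mRNA was bound to oligo(dT) beads. With 1 library per condition, a difference has no replicate check: each test compares these libraries and not the conditions, and every interval covers counting error only.

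Keratins build the intermediate filaments of epithelial cells. A filament forms from pairs of a type I and a type II keratin, so the types are used together. KRT8 (type II) and KRT18 (type I) are the usual pair of simple, single-layered epithelium, KRT7 (type II) and KRT19 (type I) are added in ducts and airways, KRT15 (type I) is known from basal cells, KRT10 (type I) from differentiating epidermis, and KRT80 (type II) is found in many epithelia. KRT8, KRT18, KRT7 and KRT19 are common markers of lung adenocarcinoma.

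The libraries held 2304184 gene tags for the control and 2093816 for the shRNA-SOX2-labelled library. The table heads its columns with short codes, and SC was taken to stand for shRNA-Con by its initials, which leaves S1 for the other library. The header of the authors' ratio column sets S1 over SC. SOX2 itself, the target of the hairpin, had 16 tags in the control and 23 in the shRNA-SOX2-labelled library, a ratio of 1.58 with a 95% interval from 0.80 to 3.20, so its few tags were not lower there. All directions below rest on the labels and on this reading of the columns. Of 10 epithelial markers 8 were found, with 927 summed tags in the control and 1135 in the other library. Most of these came from SPINT2 (567 and 817) and ELF3 (296 and 257), and 5 of the 8 had under 20 tags in the libraries together. The adhesion protein gene CDH1 had 50 tags in each, EPCAM had only 8 and 4, and GRHL2 and ST14 had no row. Markers of other cells were mostly scarce. The summed tags were 46 and 54 for 3 of 6 fibroblast markers, mostly from COL1A1 (44 and 43) beside LUM (2 and 9) and FAP (0 and 2). COL1A1 thus had nearly as many tags as CDH1, and the larger epithelial sum rests on SPINT2 and ELF3. The sums were 15 and 17 for 3 of 5 immune markers, CD14 (11 and 10), CD68 (2 and 5) and PTPRC (2 and 2). PECAM1, the 1 endothelial marker found of 4, had 3 and 0. The defining markers DCN, CD3E, CD79A, CDH5 and VWF had no row. Fewer transcripts per cell and fewer cells that carry them cannot be told apart in RNA from whole cultures.

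The tags by which these genes would be counted are shown because the tag decides which transcripts can share a count. Each is the base run from the CATG nearest the 3′ end of the principal transcript, 21 bases 5′ to 3′, with CATG in capitals. The enzyme was not given in the sources used here, so the CATG site is an assumption, and the sequences come from the GENCODE 29 annotation of GRCh38 and not from the table.
KRT8: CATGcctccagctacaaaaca
KRT18: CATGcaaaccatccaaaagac
KRT7: CATGcctggtcccaagacagt
KRT19: CATGgacatcaagtcgcggct
KRT15: CATGtaataaagaattacttt
KRT10: CATGgaaaacaaagtctccaa
KRT80: CATGccagtacagcctgcaga
KRT81: CATGgcctgcctgatcaggga

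The tags of KRT8 (chr12:52897245-52897265, minus strand), KRT7 (chr12:52248830-52248850, plus strand), KRT10 (chr17:40818303-40818323, minus strand), KRT15 (chr17:41513759-41513779, minus strand) and KRT80 (chr12:52169034-52169054, minus strand) lie in the 3′ UTR and were found in no other annotated gene. The KRT18 tag (chr12:52952752-52952772, plus strand) lies in the coding sequence and is also present in 23 KRT18 pseudogenes, so the KRT18 count could hold or lose tags of these copies. The KRT19 tag (chr17:41523828-41523848, minus strand), also coding, is shared with the pseudogene KRT19P1. The KRT81 tag (chr12:52287186-52287206, minus strand) is coding too and occurs in KRT83, KRT86 and KRT87P. Other genes were searched at any position and not only at their 3′-most CATG, so a gene with the same bases need not share a count. The 3′-most tag of KRT86 is a different one. How the authors assigned shared tags was not given in the sources used here.

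The keratins of A549 did not move as a group. Against the control, 3 of the 7 were higher in the shRNA-SOX2-labelled library (KRT8, KRT15 and KRT19) and 4 were lower (KRT7, KRT10, KRT18 and KRT80), in a Fisher's exact test per gene (two-sided) with Benjamini-Hochberg adjustment over all genes at an FDR of 0.001. Over all 13137 genes, 9.53% of genes were called higher and 12.2% lower. Calls were far more common among deeply counted genes, and of the 693 genes with at least 1000 tags, a group chosen after seeing the data, 72.4% were called in either direction, so a call of KRT8, KRT18 or KRT7 says little beside this background. By size, 2 keratins were at least 2-fold higher (KRT15 and KRT19) and 2 at least 2-fold lower (KRT7 and KRT80), where 10.4% and 13.0% of the 10045 genes with at least 20 tags were. The median log2 fold change of the 7 was -0.25, beside -0.10 for those genes, and the median size of the change was 1.14 beside 0.54. In the control KRT15 had only 7 tags, fewer than KRT4 (13), which is not a member. It reached 39 in the shRNA-SOX2-labelled library alone. The members were chosen with earlier results of these data known, so these counts and medians only describe the list. When a biological coefficient of variation of 0.1 was assumed in edgeR's exact test, the calls of KRT10 and KRT18 were lost, and with 0.2 all 7 were.

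**Figure D1:**
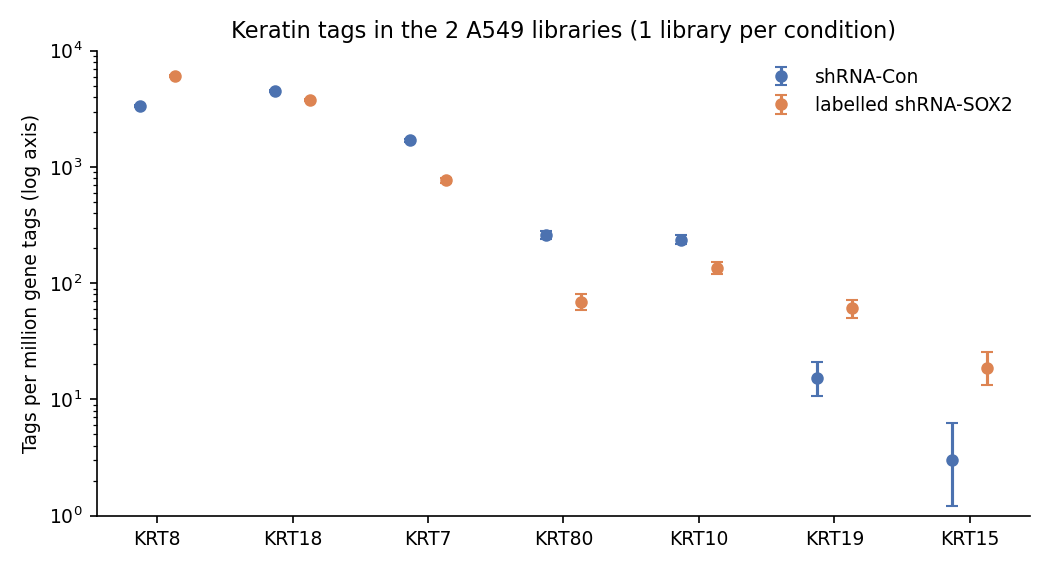
CPM, the tags per 1000000 gene tags (log axis), of 7 keratins in the control (blue) and the shRNA-SOX2-labelled library (orange), 1 library each, with exact 95% counting intervals. KRT8, KRT19 and KRT15 sit higher in the shRNA-SOX2-labelled library, and KRT18, KRT7, KRT80 and KRT10 sit lower.

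KRT8 and KRT18, the pair of simple epithelium, had the most tags of the keratins in both libraries and moved apart. KRT8 (Entrez Gene 3856) had 7702 tags in the control and 12729 in the shRNA-SOX2-labelled library, that is 3343 and 6079 CPM (tags per 1000000 gene tags). It was 1.82-fold higher, with a log2 fold change of 0.86 and an interval from 0.82 to 0.90, and its rank by tags went from 17 to 9 among all genes. KRT18 (Entrez Gene 3875) had 10318 and 7887 tags, 4478 and 3767 CPM, and was 1.19-fold lower (log2 fold change -0.25, interval -0.29 to -0.21, adjusted p = 1.32e-29 by Fisher's exact test), with a rank of 9 in the control and 15 in the other library. Among the 1661 genes with at least 500 tags, 88.9% had a lower log2 fold change than KRT8 and 37.7% a lower one than KRT18. The KRT8 to KRT18 ratio was 0.746 (0.725 to 0.769) in the control and 1.61 (1.57 to 1.66) in the shRNA-SOX2-labelled library, a 2.16-fold difference. This ratio within a library does not depend on the scaling between libraries, and the intervals do not overlap. It does depend on how tags shared with KRT18 pseudogenes were assigned, which was not given in the sources used here.

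The genes of the pair lie next to each other on chromosome 12, KRT8 on the minus strand (chr12:52897187-52949954) and KRT18 on the plus strand (chr12:52948871-52952901). Their annotated gene spans overlap at the 5′ ends in opposite directions. The KRT8 promoter window described below lies inside the KRT8 span, and which start the counted KRT8 transcripts used was not tested. Among genes with at least 500 tags, those with log2 fold changes nearest to that of KRT8 were CPNE3, PSME3 and HADHA, at 0.86, 0.87 and 0.87. Those nearest to KRT18 were SCRN1, ABCC1 and ARF1, each at -0.25. With only 1 pair of libraries a likeness of this kind rests on 1 value per gene.

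A processed copy of KRT8, the pseudogene KRT8P41 on chromosome 11 (chr11:9094377-9095890, plus strand), which was picked out after its values were seen, was also higher, with 13 tags in the control and 57 in the shRNA-SOX2-labelled library (log2 fold change 2.27, interval 1.38 to 3.26, adjusted p = 9.44e-08 by Fisher's exact test). Its 3′-most tag and the site of KRT8 most like it are shown to see whether reads of one could be taken for the other.
KRT8P41: CATGagtgtccatctgaagac
KRT8, nearest site: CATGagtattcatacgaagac
They differ at 4 bases counted from 1 at the C of CATG, A8G, T10C, A14C and C15T with the KRT8 base first, and KRT8 has 1 more CATG further 3′. The pseudogene made up 0.169% (exact interval 0.0898% to 0.288%) of the tags of both genes in the control and 0.446% (0.338% to 0.577%) in the other library, so its tags are few beside those of KRT8.

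KRT7 and KRT19, which join the simple pair in airway and duct epithelium, went in opposite directions. KRT7 (Entrez Gene 3855) had 3899 tags in the control and 1606 in the shRNA-SOX2-labelled library, 1692 and 767 CPM, and was 2.21-fold lower (log2 fold change -1.14, interval -1.23 to -1.06, adjusted p = 7.46e-169 by Fisher's exact test). Its rank by tags was 65 and 156, and 7.04% of the genes with at least 500 tags had a lower log2 fold change. KRT19 (Entrez Gene 3880) was sparse in both libraries, with 35 and 127 tags, 15.2 and 60.7 CPM. It was 3.99-fold higher with an interval of the ratio from 2.73 to 5.98 (adjusted p = 2.73e-14 by Fisher's exact test). The KRT7 to KRT19 ratio was 111 (80.0 to 160) in the control and 12.6 (10.6 to 15.3) in the shRNA-SOX2-labelled library. KRT7 thus had more tags than KRT19 in each library. The predicted KRT19 tag also occurs in KRT19P1, so the KRT7 to KRT19 ratio rests on how shared tags were assigned.

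KRT15, a type I keratin known from basal cells, had the largest fold change of the 7 and the fewest tags. KRT15 (Entrez Gene 3866) had 7 tags in the control and 39 in the shRNA-SOX2-labelled library, 3.04 and 18.6 CPM. The ratio was 6.13 with a wide interval from 2.71 to 16.2 (adjusted p = 2.36e-06 by Fisher's exact test). KRT15 (chr17:41513743-41522529) and KRT19 (chr17:41523617-41528308), the 2 keratins at least 2-fold higher, are neighbours on the minus strand of chromosome 17 with 0 annotated genes between them. This pair was picked by its values, and KRT10, which was lower, lies on chromosome 17 too. Of 11 markers of basal and squamous cells, 5 were found and 0 were called, with 16 and 36 summed tags. TP63, the transcription factor that defines basal cells, had 7 and 23 tags (adjusted p = 0.00577 by Fisher's exact test, above the threshold). DSG3, a desmosomal cadherin of stratified epithelium, had 3 and 6 tags and KRT6B 0 and 4. KRT16, with 4 and 3 tags, and KRT17, with 2 and 0, went the other way, and the higher sum came mostly from TP63. KRT5, KRT14 and KRT6A had no row. The part of such cells in the KRT15 values was not tested.

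KRT80, a type II keratin of many epithelia, and KRT10, known from differentiating epidermis, were both lower. KRT80 (Entrez Gene 144501) had 598 tags in the control and 145 in the shRNA-SOX2-labelled library, 260 and 69.3 CPM. It was 3.75-fold lower (log2 fold change -1.91, interval -2.18 to -1.64, adjusted p = 3.29e-55 by Fisher's exact test), and only 1.08% of the genes with at least 500 tags had a lower log2 fold change. KRT80 went from rank 590 to rank 2559. KRT10 (Entrez Gene 3858) had 547 and 284 tags, 237 and 136 CPM, and was 1.75-fold lower (log2 fold change -0.81, interval -1.02 to -0.60, adjusted p = 8.9e-14 by Fisher's exact test). KRT80 (chr12:52168996-52192000) and KRT7 (chr12:52232520-52252186), the 2 keratins at least 2-fold lower, lie near each other on chromosome 12 with the 2 noncoding genes LINC02874 and LINC00592 between them. They too were picked by their values, and KRT8 and KRT18 lie on the same chromosome.

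**Figure D2:**
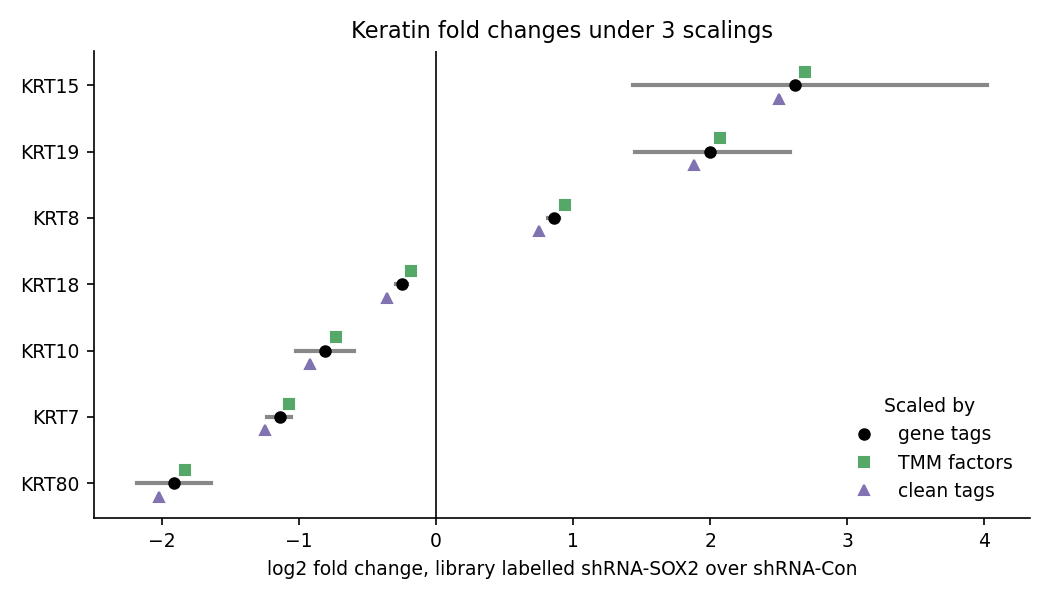
log2 fold change of each keratin, shRNA-SOX2-labelled library over shRNA-Con, scaled by gene tags (black, with the 95% interval as a grey bar), TMM factors (green) or clean tags (purple). No keratin changes side of 0 between the 3 scalings, and KRT18 lies nearest to it at -0.25.

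In this assay each transcript gives 1 tag, so counts of different genes were compared without division by length. The predicted tags of KRT18 and KRT19 also occur in pseudogenes, so their places in the order rest on how shared tags were assigned. In shRNA-Con the order was KRT18, KRT8, KRT7, KRT80, KRT10, KRT19 and KRT15, where KRT80 (239 to 281 CPM) and KRT10 (218 to 258) overlap in their intervals and the other neighbours do not. In the shRNA-SOX2-labelled library the order was KRT8, KRT18, KRT7, KRT10, KRT80, KRT19 and KRT15, and here KRT80 (58.4 to 81.5) and KRT19 (50.6 to 72.2) overlap. The ends of the order, the simple pair with KRT7 above and KRT15 below, were in place in both.

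While single keratins differed by up to 6.13-fold, their sum differed by far less. The 7 keratins together had 23106 tags in the control and 22817 in the shRNA-SOX2-labelled library, a share of all gene tags of 0.99% to 1.02% and of 1.08% to 1.10% (exact 95% intervals). The log2 fold change of the sum was 0.12 (0.09 to 0.15), and it was 0.19 with TMM factors or the median ratio and 0.01 with clean tags. What differed was the make-up. KRT8 was 33.3% of the keratin tags in the control and 55.8% in the other library, KRT18 was 44.7% and 34.6%, and KRT7 was 16.9% and 7.04%. KRT8 and KRT18 together held 78.0% (exact interval 77.4% to 78.5%) and 90.4% (90.0% to 90.7%). KRT80 went from 2.59% to 0.635% and KRT10 from 2.37% to 1.24%, while KRT19 went from 0.151% to 0.557% and KRT15 from 0.0303% to 0.171%.

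**Figure D3:**
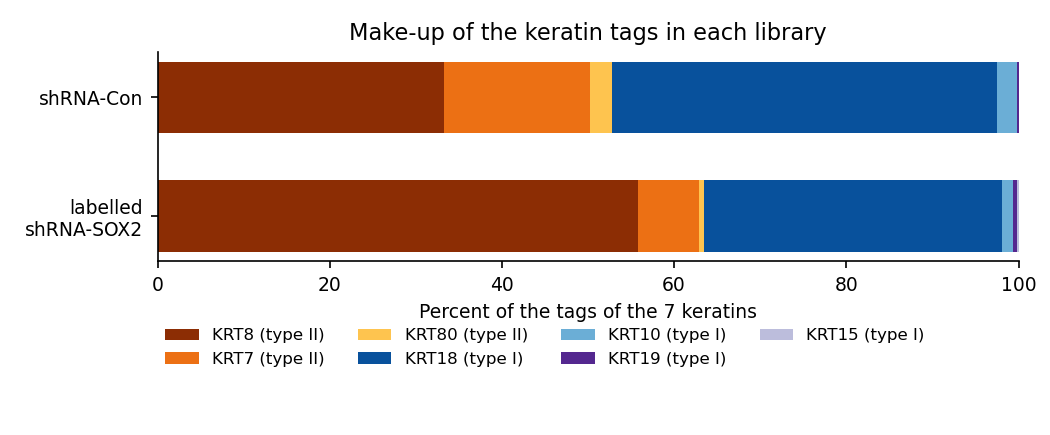
Percent of the tags of the 7 keratins that each keratin holds, 1 bar per library, with type II keratins in warm and type I keratins in cool colours. KRT8 takes 33.3% of the bar in the control and 55.8% in the shRNA-SOX2-labelled library, and KRT7 takes 16.9% and 7.04%.

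By type, the type II keratins had 12199 and 14480 tags (log2 fold change 0.39, interval 0.35 to 0.42) and the type I keratins 10907 and 8337 (-0.25, interval -0.29 to -0.21). The type II to type I ratio was 1.12 (1.09 to 1.15) in the control and 1.74 (1.69 to 1.78) in the shRNA-SOX2-labelled library. Without KRT8 and KRT18, a choice made after seeing the data, the direction turned, with 7.63 (7.0 to 8.33) in the control and 3.89 (3.51 to 4.33) in the other library. The difference by type therefore rests on KRT8 and KRT18. Similar ratios, also computed after seeing the data, were 1.98 and 7.93 for KRT8 to KRT7 and 295 and 62.1 for KRT18 to KRT19.

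Other keratins were sparse. There were 9 more keratin genes, with 50 tags in the control and 33 in the shRNA-SOX2-labelled library in all and at most 13 in a library, and the 7 members held 99.8% and 99.9% of all keratin tags. By Fisher's exact test 0 of the 9 were called, and 2 had an unadjusted p under 0.05, KRT20 of intestinal and urothelial cells (7 tags and listed at 0, p = 0.0164) and the hair keratin KRT34 (6 tags and listed at 0, p = 0.0323). KRT4 had 13 and 8 tags, KRT86 9 and 10, KRT12 7 and 3, KRT16 4 and 3, KRT222 2 and 5, KRT6B 0 and 4, and KRT17 2 and 0. The table holds no value of exactly 1 tag, so a listed 0 may not be a true 0.

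**Figure D4:**
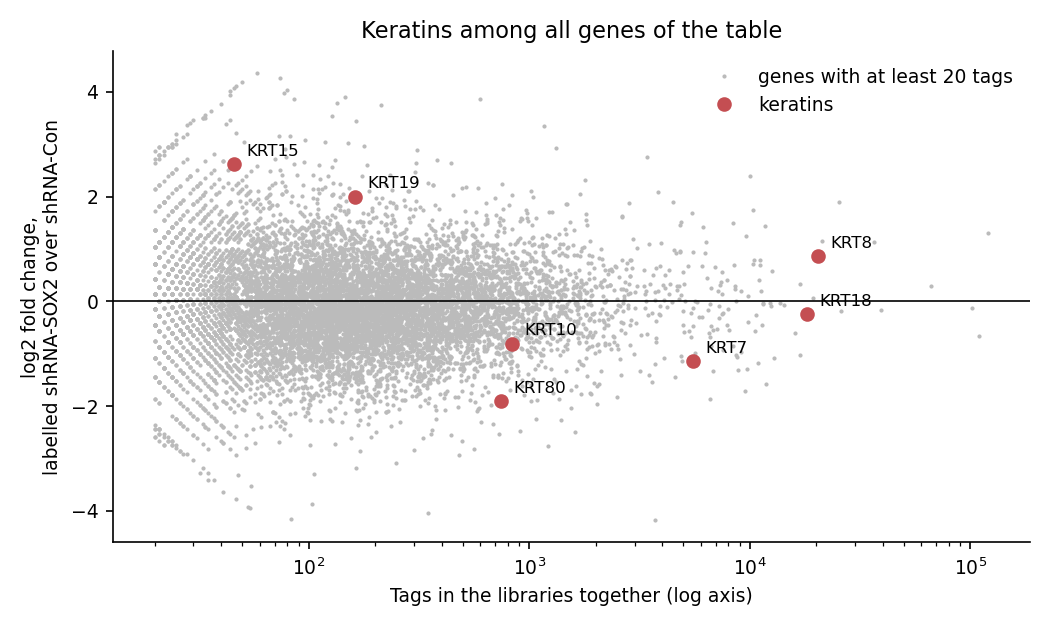
log2 fold change, shRNA-SOX2-labelled library over shRNA-Con, against the tags of both libraries together (log axis), with each of the 10045 genes with at least 20 tags as a grey point and the keratins in red. KRT80 lies at the lower edge of genes of its depth, with 1.08% of the genes with at least 500 tags below it, and KRT18 lies inside the cloud.

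The non-keratin intermediate filament genes were mixed as well. Of 16 listed 11 were found, of which 3 were higher, 2 were lower and 6 were not called, with a median log2 fold change of 0.22 over those with at least 20 tags. For this list and those below, the shares called over all 13137 genes were 9.53% higher and 12.2% lower. Among genes with at least 1000 tags, 72.4% were called in either direction, so a call of a deeply counted gene says little. VIM, the filament protein of mesenchymal cells, had 3872 tags in the control and 1780 in the shRNA-SOX2-labelled library (log2 fold change -0.98), tag numbers close to those of KRT7 in both. The nuclear lamin gene LMNA had 492 and 1322 tags (1.56). The neuronal filament genes INA and NEFL were higher, with 118 and 198 tags (0.88) and with 8 and 65 (3.16), while the neuronal PRPH was lower, with 24 and 2. LMNB2 had 188 and 127 tags and was not called.

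Proteins that fix keratin filaments to desmosomes, hemidesmosomes and other filaments form the next list. Of its 15 genes 13 were found, with 2 higher, 3 lower and 8 not called (median log2 fold change 0.19). The desmosomal plaque gene JUP had 165 and 341 tags (1.19) and EVPL, a cornified envelope and desmosome linker, 32 and 71 (1.29). The desmosomal cadherin DSG2 had 381 and 156 tags (-1.15), PKP4, of cell junctions, 100 and 44 (-1.05), and MACF1 442 and 255 (-0.66). The linkers PLEC, with 928 and 986 tags, and DST, with 267 and 256, were not called.

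Of 17 genes for proteins that bind or modify keratins, 3 were higher, 5 were lower and 9 were not called (median log2 fold change -0.24). The adaptor genes YWHAE, with 4202 and 2601 tags (-0.55), and YWHAZ, with 2185 and 1676 (-0.24), and the scaffold gene GNB2L1, with 3120 and 1893 (-0.58), were lower, and YWHAB, with 1643 and 1361, was not called. The small heat shock protein gene HSPB1 had 34 and 83 tags (1.43).

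Of 15 genes for transcription factors linked to keratin genes, 1 was higher, 8 were lower and 6 were not called. Over all genes, 9.53% were called higher and 12.2% lower. The median log2 fold change of the list was -0.75, beside -0.10 for all genes with at least 20 tags. FOS was the 1 that was higher, with 786 and 1274 tags (0.83). CEBPB had 1363 and 461 tags (-1.43), TFAP2C 123 and 40 (-1.48), FOSL1 115 and 36 (-1.54), ETS1 61 and 12 (-2.21), KLF4 81 and 18 (-2.03) and JUN 697 and 225 (-1.49), all lower, and JUND, with 319 and 349, was not called. Of the epithelial markers, 1 was higher and 7 were not called. The 1 was SPINT2, a protease inhibitor gene, with 567 and 817 tags (0.67), and the epithelial factor gene ELF3 had 296 and 257.

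Promoter windows from 250 bases before to 50 after the start were at hand for KRT8 and KRT10, from RefSeq on GRCh38.p14. The KRT8 window (chr12:52926420-52926719, minus strand) lies inside the KRT8 span given above and not at the 5′ end that overlaps KRT18, so its motif counts are not those of that end. The KRT10 window (chr17:40822565-40822864, minus strand) covers the 5′ end of the KRT10 gene. Motifs were searched as letters on both strands. The GC box GGGCGG, which 45.0% of 35116 promoters hold, was found 0 times in either window. The AP-1 motif TGANTCA, held by 7.71%, was also found 0 times in either. The TATA box TATAAA, held by 11.5%, was found 1 time in the KRT10 window and 0 times in that of KRT8. The SOX-type motif AACAAT, held by 10.1%, was found 1 time in the KRT10 window and 0 times in that of KRT8. A match is a run of letters and not a site.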

How the data were processed

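The authors prepared 1 digital gene expression library per condition and deposited 1 table with whole-number tag counts per Entrez Gene ID, not normalized. The authors' deposited TPM scales each count by the clean tags of its library (3516266 for shRNA-Con and 3456234 for shRNA-SOX2, of which 65.5% and 60.6% were on genes), and served here only for that total. Deposited columns with the authors' log2 ratio, p-value and FDR were not used. The submitters' processing notes name hg19, and the aligner, the tag enzyme and the use of strand were not given in the sources used here. Coordinates in the text are from GRCh38.

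Counts were divided by all gene tags, and counts below 3 were set to 3 in fold changes. A count of 3 is 1.30 CPM for shRNA-Con and 1.43 CPM for shRNA-SOX2. Each gene was tested with a two-sided Fisher's exact test (scipy 1.17.1), Benjamini-Hochberg adjusted over 13137 genes, with calls at the FDR the study used, 0.001. The 95% intervals are of the Clopper-Pearson kind. Tests were checked on simulated data with counting error only. These hold no spread between replicate libraries, so the check does not bear on differences between the conditions. R 4.3.3, edgeR 4.0.16 and DESeq2 1.42.0 gave the alternatives. The named genes were all members, all other keratins, and in each list the 4 genes with most tags plus called genes at least 2-fold apart, with SOX2 and the 3 genes nearest in fold change to KRT8 and KRT18. The pseudogene KRT8P41 and markers with no row were named outside this rule. The members and lists were chosen with earlier results of these data known.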

Additional observations from a re-analysis of the deposited data

How the results depend on the processing

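The counts of 4 lower and 3 higher keratins held under scaling by clean tags, the median ratio or TMM factors, the test of Audic and Claverie, an FDR of 0.05 and a minimum of 10 tags. They became 2 lower and 2 higher when a log2 fold change of at least 1 was also required, 2 lower and 3 higher at an assumed biological coefficient of variation of 0.1, and 0 lower and 0 higher at 0.2 and at 0.4, where 113 and 0 of all genes were called against 2849 in the main test. By Fisher's exact test 5800 genes had an unadjusted p under 0.05. The median log2 fold change of the keratins, -0.25, was -0.36 under clean tags and -0.18 under both the median ratio and TMM, and that of their summed tags, 0.12, was 0.01 and, under both others, 0.19. TMM factors moved all genes by 0.07 and clean tags by -0.11. Of 49 values for single keratins under the alternatives, 33 kept direction and call and 16 lost the call, all 16 with an assumed spread. The scalings of the 2-fold counts were a later addition, made with the data seen. Replicates were lacking. No paired analysis was possible because there was 1 library per condition, and for the same reason no library could be left out. Depth limits KRT15, with 7 tags in shRNA-Con, and the 9 other keratins.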
